A study of Mus musculus with 721 samples.

Results

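Cells of the mouse inner cell mass (ICM) at E3.5 were divided by a single gene, Fgf4, and every other gene was compared between the resulting classes within the same embryos. The members were chosen by their Fgf4 level. A cell with at least 10 CPM of Fgf4 (raw counts of a gene per 1000000 counts of the cell) was taken as a cell with Fgf4, and all others as cells without it. By this rule 50 of the 99 E3.5 cells had Fgf4 and 49 did not, among 721 cells in the series (E3.5 to E6.5). All cells came from untreated wild type C57Bl/6Babr embryos, E3.5 blastocysts having been stripped of their trophectoderm by immunosurgery before single cells were picked by hand for Smart-seq2 libraries of polyadenylated RNA. Comparisons were made over embryos and not over cells, which within an embryo share their origin and handling. Both classes held at least 3 cells in embryos 6 (14 with and 14 without), 7 (11 and 6), 8 (7 and 4) and 9 (6 and 12), and among the cells whose titles give no embryo number (6 and 3), which are treated as 1 embryo although their number of embryos is unknown. These 5 embryos hold 44 cells with and 39 without Fgf4, and counts were summed over each class in each of them. Embryos 1 to 5 gave 3 or 4 cells each and were left out of the fit.

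FGF4 is a secreted ligand made in the ICM by cells that go on to form the epiblast. It signals through the receptors FGFR1 and FGFR2 to the Ras and ERK cascade, and heparan sulfate chains on the cell surface are needed for its binding. Cells that receive strong FGF signals form the primitive endoderm (PrE), marked by GATA6, PDGFRA, SOX17 and GATA4, while the epiblast keeps NANOG and SOX2. At E3.5 the precursors of both are mixed within the ICM, and by E4.5 they lie in separate layers.

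Fgf4 (chromosome 7, 144847367 to 144865243 on the plus strand of GRCm38, protein-coding) ranged from 10.4 to 613 CPM with a median of 115.9 in the cells above the limit, from 8 to 404 counts. Of the 49 cells below it, 44 had no Fgf4 count, and the other 5 held 2.31, 3.47, 5.56, 5.59 and 7.16 CPM from 2 to 6 counts. The nearest cells above the limit held 10.4, 12.9, 22.3, 26.3 and 27.04 CPM. The limit therefore fell in a sparse stretch of the Fgf4 values, and no cell changed class (0 of 99) when every cell was thinned to 180000 counts. For the single cell, a count of 0 allows 3 counts, which were worth 2.56 to 13.9 CPM in the cells with no Fgf4 count. In 4 of them 3 counts were worth more than 10 CPM, so these 4 cells could not be placed with certainty at their depth. The thinning and this bound cover the sampling of reads alone. Transcripts lost before sequencing are not covered, so a count of 0 is not shown to be an absent transcript in any cell.

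**Figure D1:**
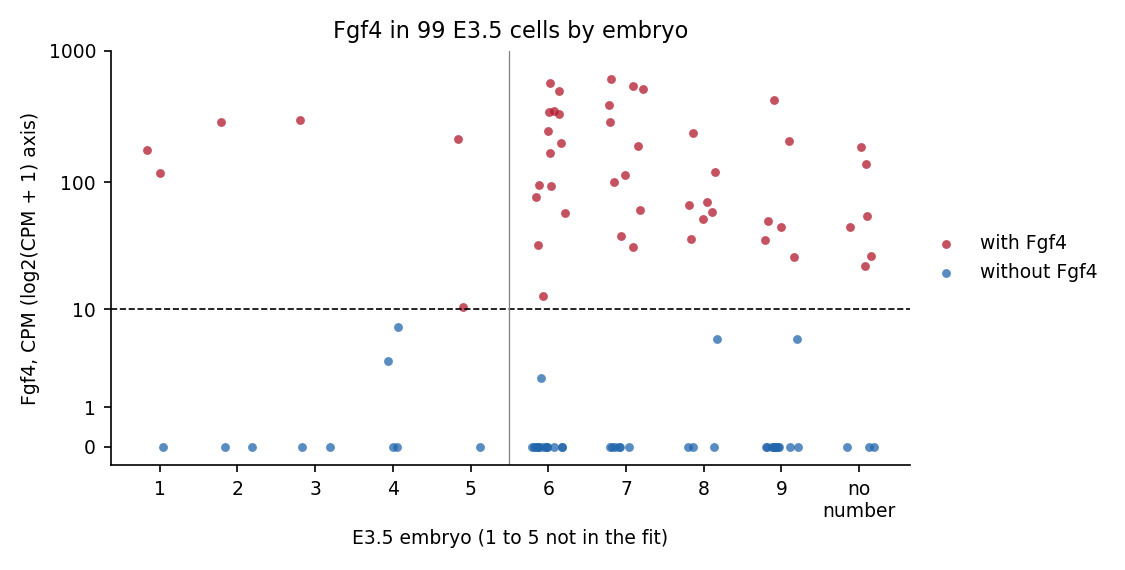
Fgf4 level in each of the 99 E3.5 cells, by embryo, on a log2(CPM + 1) axis. Each point is a cell, the dashed line is the limit of 10 CPM, and embryos to the right of the grey line entered the fit. 44 of the 49 cells below the limit lie at 0.

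The share of cells with Fgf4 was 50.5% (95% Clopper-Pearson interval 40.3 to 60.7%, for counting error alone), and it ranged among the embryos of the fit from 33.3% in embryo 9 to 66.7% in the cells without an embryo number. Within the class the level varied widely too. The median over cells with Fgf4 was 183.5 CPM in embryo 6 and 189.8 CPM in embryo 7, against 66.8, 47.7 and 50.1 CPM in embryos 8 and 9 and the cells without a number. In the sums, Fgf4 stood at 212.6, 297, 85.2, 111.5 and 91.3 CPM in the cells with it and at 0.266, 0, 0.996, 0.288 and 0 CPM in those without it (here and below in the order embryo 6, 7, 8, 9 and no number). These values restate the rule and were not tested.

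The classes were also compared for depth and for the number of genes detected. Median total counts were 518956 with and 591573 without Fgf4, and a median of 6635 genes was detected with Fgf4 against 5837 without. Within embryos the difference in median genes detected was 904.8 ± 828 (SD, n = 5), higher with Fgf4 in 4 of 5 embryos, and the exact two-sided paired permutation test gave p = 0.125, where 5 pairs cannot give less than 0.063. After thinning the difference was 787 (p = 0.1875, same exact test). In single wells alone it was 901, higher in 5 of 5 embryos (p = 0.063, same exact test, the smallest possible). Differences of genes in cells with at least 5500 detected genes are given below. Of the 9 E3.5 wells seen to hold a doublet, 6 had Fgf4. Trophectoderm markers overlapped between the classes, with a summed level of 386 to 982 CPM over 8 markers with Fgf4 and 329.6 to 1046 CPM without it, and Elf5, which the authors used to remove trophoblast cells, was at 0 in all 10 sums. Over all E3.5 cells, at least 10 CPM of Elf5 was found in 0 of 50 cells with Fgf4 and 2 of 49 without. Those 2 cells, from embryos 2 and 4 outside the sums, held 17.5 and 111.4 CPM, and they enter the counts of single cells below. Cdx2 was found in 2 cells of each class.

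Between the classes no gene passed at E3.5. Of 8712 genes tested with edgeR's quasi-likelihood test, paired by embryo, 0 (0%) reached an adjusted p of 0.05, and the smallest adjusted p was 0.998. At an unadjusted p under 0.05 there were 328 genes (3.76%), with 2.32% of all genes tested higher and 1.45% lower with Fgf4. The genes described below are therefore ranked, and not called, by edgeR. DESeq2 on the same sums called 34 genes (0.39%), 25 higher and 9 lower with Fgf4. Over all genes the median log2 difference was 0.13 in favour of the cells with Fgf4, and 59.5% of genes lay above 0. One direction in every embryo was found for 4.83% of genes as higher and 2.48% as lower with Fgf4, and sums that did not overlap at all in 48 genes higher (0.551%) and 28 lower (0.321%). The sums ranged from 2200086 to 7508806 counts, and the median standard error of a log2 difference was 0.67. In simulated sums of this design 34% of genes changed 4-fold were recovered. Those sums were drawn from the fitted dispersions with 200 genes changed by the same size, so this share need not hold for the real sums.

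The smallest p values belonged to genes of the PrE that were lower in cells with Fgf4. Sox17, a transcription factor of the endoderm (chromosome 1, 4490931 to 4497354), stood at 2.54, 11.7, 4.41, 14.1 and 0 CPM in the sums with Fgf4. Without Fgf4 it stood at 98.2, 113.4, 25.9, 154.2 and 8.32 CPM. It was thus lower with Fgf4 in every embryo, although the highest sum with Fgf4 (embryo 9) lay above the lowest without it (no number). The log2 difference was -3.90 (standard error 0.73, adjusted p = 0.998 with edgeR and 5.08e-06 with DESeq2). Pdgfra, the receptor for PDGF and an early mark of PrE precursors (chromosome 5, 75152292 to 75198215), stood at 29.05, 20.5, 31.1, 40.4 and 40.1 CPM with Fgf4 and at 285, 323, 80.2, 143.1 and 116.1 CPM without it. No sum with Fgf4 reached the lowest sum without it. Its means were 32.2 ± 8.31 and 189.5 ± 107.8 CPM (SD, n = 5 each), a log2 difference of -2.38 (standard error 0.45, adjusted p = 0.998 with edgeR and 8.45e-05 with DESeq2). In the 4 numbered embryos, whose titles share the field P9, without the cells that have no number, the log2 differences were -3.61 for Sox17 and -2.62 for Pdgfra.

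Gata6, the zinc finger factor that directs the PrE programme, differed less. Its sums with Fgf4 were 234.1, 125.5, 64.8, 75.4 and 118.96 CPM, and those without it 222.5, 459.8, 179.3, 118.9 and 185.1 CPM. Embryo 6 was level between classes and the other 4 were lower with Fgf4 (log2 difference -0.91, standard error 0.31, adjusted p = 0.998 with edgeR). Gata4 was mostly found in cells without Fgf4, at 42.7, 126.5, 29.4, 98.2 and 0 CPM against 1.87, 11.18, 17.9, 0.393 and 0.621 CPM, with the cells that have no number as the exception. Sox7, which follows Sox17 in the PrE, was counted in 1 of the 10 sums.

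Among the 40 genes of the PrE list, 39 have a row, 31 had a count in the sums and 20 were tested. Of these, 16 had a log2 difference below 0 and 4 above, with a median of -0.45 against 0.13 over all genes. 5 were lower at an unadjusted p under 0.05 (Sox17, Pdgfra, Gata6, Gata4 and the water channel gene Aqp8) and 0 were higher, 3 were lower in 5 of 5 embryos (Sox17, Pdgfra and Fgfr2), and none passed in edgeR while Sox17 and Pdgfra passed in DESeq2. Over all genes tested, 59.5% lay above 0, 1.45% were lower at that p and 2.48% were lower in 5 of 5 embryos. Genes of the endoderm's basement membrane had close means and overlapping sums. Col4a1 was at 60.1 ± 34.8 CPM with and 56.9 ± 34.6 without Fgf4, Lamc1 at 113.8 ± 39.9 and 152.4 ± 98.4, and Sparc at 293 ± 186.6 and 319.9 ± 365 (SD, n = 5 each). Of the members too sparse to test, Runx1 was lower in 5 of 5 embryos, at 0.276 ± 0.464 against 8.13 ± 6.92 CPM.

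**Figure D2:**
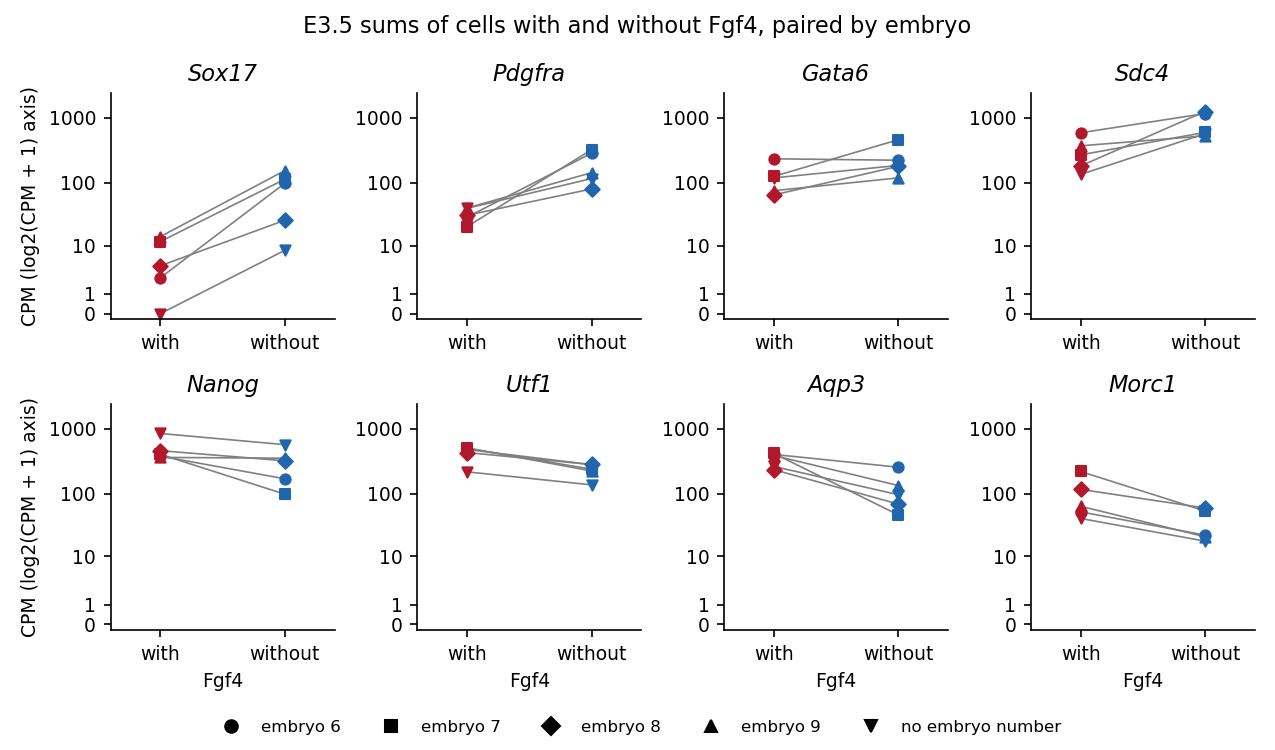
CPM of 8 genes in the sums of E3.5 cells with (red) and without (blue) Fgf4, on a log2(CPM + 1) axis, with a line joining the sums of an embryo and a symbol for each embryo. Sox17, Pdgfra and Sdc4 are lower with Fgf4 in all 5 embryos, and Nanog, Utf1, Aqp3 and Morc1 are higher in all 5, while Gata6 is lower in 4. None of the 8 passed edgeR's adjusted test.

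The summed level of 7 PrE markers was 297, 185.5, 125.9, 140.9 and 165.6 CPM in the sums with Fgf4 and 728, 1067, 355, 552 and 336 CPM in those without. It was lower with Fgf4 in 5 of 5 embryos by a factor of 2.03 to 5.75, and the classes did not overlap. The 7 epiblast markers summed to 2299.8, 3194, 1979, 1974 and 2903 CPM with Fgf4 and to 1458, 2412, 2125, 2182.3 and 2212 CPM without it, higher with Fgf4 in 3 embryos and lower in the other 2. Their ranges overlapped. The PrE sums were thus separate between the classes and the epiblast sums were not. PrE markers were Gata6, Gata4, Sox17, Sox7, Pdgfra, Fgfr2 and Dab2. Of these, Gata4, Sox17, Pdgfra and Fgfr2 were named by the study, as was Fgf4, for a lineage bias among these same cells. The separation of the PrE sums is therefore not independent evidence. Epiblast markers were Nanog, Sox2, Esrrb, Tdgf1, Gdf3, Bmp4 and Prdm14, and Tdgf1 made up most of their mean sum. The epiblast sums therefore mainly follow Tdgf1, while Nanog was higher with Fgf4 in 5 of 5 embryos. Taken singly, 4 epiblast markers were higher and 3 lower with Fgf4, against 1 and 6 PrE markers.

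**Figure D3:**
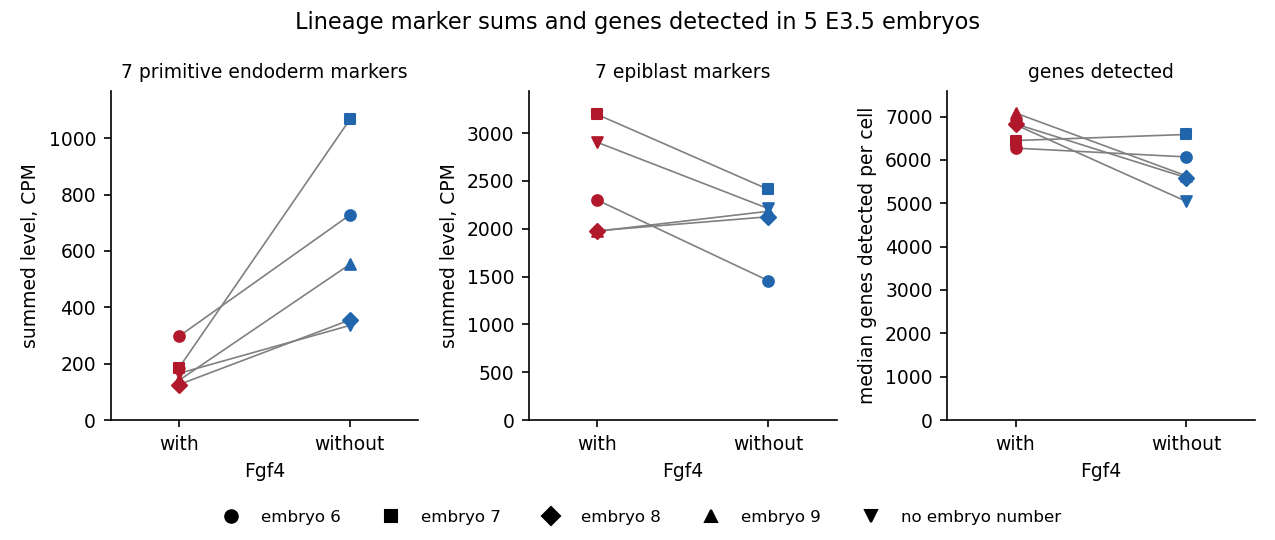
Summed CPM of 7 PrE markers and of 7 epiblast markers, and the median of genes detected over cells, in the E3.5 classes with (red) and without (blue) Fgf4. Lines join the classes of an embryo. The PrE sums with Fgf4 reach 297 CPM and those without begin at 336 CPM, the epiblast sums overlap, and genes detected are higher with Fgf4 in 4 of 5 embryos.

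Single cells showed how often Fgf4 and PrE genes were found together. In sums, fewer cells with a transcript and less of it per cell cannot be told apart. At least 10 CPM of Sox17 was found in 6 of 50 cells with Fgf4 and in 21 of 49 without. The 6 cells with both held 33.1 to 214.3 CPM of Fgf4 and 15.9 to 168.7 CPM of Sox17, came from 6 embryos, and included 2 wells seen to hold a doublet. The cell with most Sox17 among them (embryo 7, single) also held 160.9 CPM of Gata4, 571 CPM of Gata6, 259.5 CPM of Nanog and 355 CPM of Sox2. Gata4 was found in 4 of 50 cells with and 15 of 49 without Fgf4, and Fgfr2 in 10 and 26. Pdgfra was shared more often, with 30 and 39 cells, and Gata6 was found in nearly all cells of both classes, 41 of 50 and 46 of 49. Of the cells with both Sox17 and Pdgfra, 4 had Fgf4 and 20 did not. Cells of an embryo are not replicates, so these counts are descriptions without a test.

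Nanog was found in all cells with Fgf4. All 50 cells with Fgf4 held at least 10 CPM of Nanog, from 55.6 to 1469 CPM with a median of 454. For counting error alone, 0 in 50 cells allows a share without Nanog of up to 6%. That bound treats the cells as independent and leaves out the spread between the 9 embryos they came from. Among the 49 cells without Fgf4, 39 held Nanog and 10 did not. Of these 10 cells, which came from 5 embryos, 10 held Gata6, 9 Pdgfra, 8 Sox17, 8 Fgfr2 and 6 Gata4, and 7 still held Sox2. Their median number of genes detected was 5951, against 5745 in the cells without Fgf4 that held Nanog. In the cells with Fgf4 it was higher, at 6635, and what this adds to the difference in Nanog was not tested. Those 39 cells, with Nanog and without Fgf4, included 13 with Sox17 and 30 with Pdgfra. A cell with Fgf4 held a median of 2 of the 7 PrE markers and a cell without it 3, while 5 of 7 epiblast markers was the median in both classes. At least 4 PrE markers were found in 4 of 50 cells with Fgf4 (8%) and in 22 of 49 without (44.9%).

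**Figure D4:**
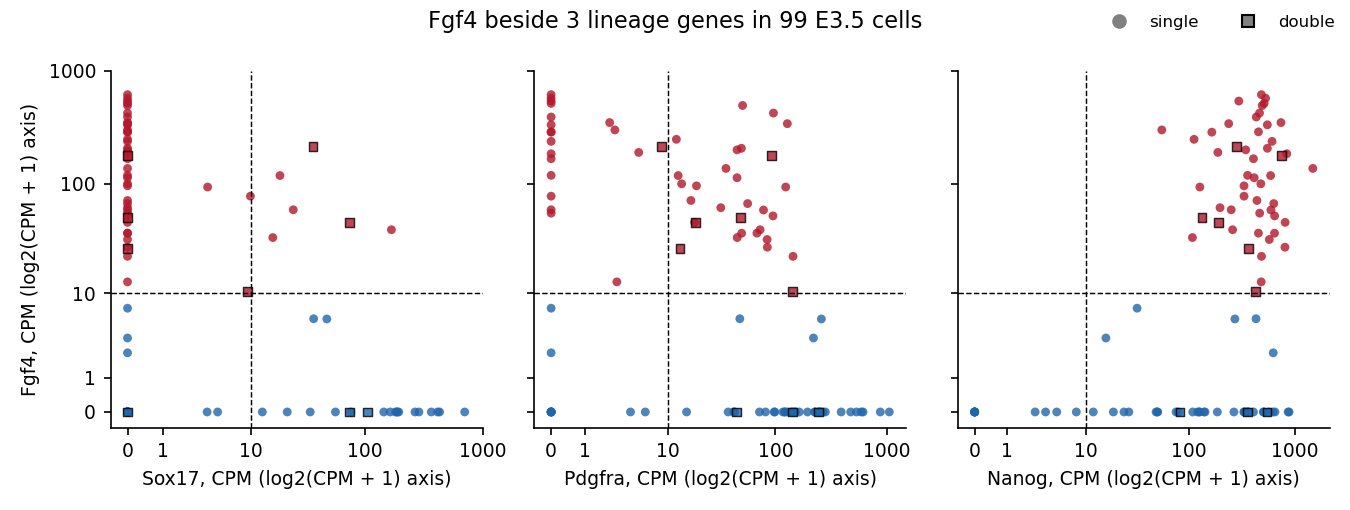
Fgf4 (vertical) against Sox17, Pdgfra and Nanog (horizontal) in the 99 E3.5 cells, all on log2(CPM + 1) axes with dashed lines at 10 CPM. Red points are cells with and blue points cells without Fgf4, and squares mark wells seen to hold a doublet. Few red points lie to the right for Sox17, many do for Pdgfra, and all 50 do for Nanog.

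Of the epiblast and pluripotency genes, none passed in edgeR, and some were higher with Fgf4 in every embryo. Nanog (chromosome 6, 122707489 to 122714633) stood at 377, 403, 458, 361 and 841 CPM with Fgf4 and at 169.2, 97.9, 320.2, 351 and 566 CPM without it. It was higher in every embryo, by little in embryo 9, and the classes overlapped (log2 difference 0.85, standard error 0.27, adjusted p = 0.998 with edgeR and 0.124 with DESeq2). Utf1, a chromatin-associated gene of pluripotent cells, stood at 477, 499, 428, 505 and 216.5 CPM with Fgf4 and at 279, 237.5, 281, 223.4 and 136.5 CPM without. Every embryo was higher with Fgf4, by a similar step in each (log2 difference 0.86, standard error 0.18, adjusted p = 0.998 with edgeR and 0.0224 with DESeq2). Klf2, a naive pluripotency factor, was higher in 5 of 5 embryos, at 191.7 ± 75.6 against 101.1 ± 57.9 CPM, and the naive factor Tfcp2l1 likewise at 933 ± 75.3 against 721 ± 104.4 CPM (SD, n = 5 each). Sox2 was higher in 4 of 5 embryos, at 108.8 ± 41.6 against 57.01 ± 24.4 CPM.

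In the list of 35 epiblast and pluripotency genes, 29 were tested and 22 of them had a log2 difference above 0, with a median of 0.20 against 0.13 over all genes. Those higher at an unadjusted p under 0.05 were 6, namely Utf1, Nanog, Fbxo15, Tfcp2l1, Klf2 and Sox2, and 0 were lower. Over all genes tested, 59.5% lay above 0 and 2.32% were higher at that p. In the list 7 were higher in 5 of 5 embryos (4.83% of all genes were) and 0 lower, none passed in edgeR, and Utf1 passed in DESeq2. Other members showed no such step. Gdf3, a TGF-beta family ligand, was at 286 ± 67.03 CPM with and 288 ± 108.5 without Fgf4, Esrrb at 86.8 ± 20.4 and 120.2 ± 79.6, and Tdgf1, the co-receptor for Nodal, at 1438.5 ± 451 and 1225 ± 241.7 (SD, n = 5 each).

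The pathway that FGF4 acts on was followed from ligand to target. Fgf10 was the other ligand with enough counts to test, and stood at 125.04 ± 31.9 CPM with and 137.3 ± 68.6 without Fgf4 (log2 difference -0.02, standard error 0.26). Fgf3 was at 3.65 ± 5.54 and 6.52 ± 11.6 CPM, and the remaining ligands with a row had means at or below 2.04 CPM in both classes. Of the receptors, Fgfr1 stood at 78.8, 76.4, 68.1, 27.5 and 152.8 CPM with Fgf4 and at 84.1, 143.3, 91.1, 42.1 and 12.9 CPM without, lower in 4 embryos and higher among the cells without a number. Fgfr2 stood at 26.4, 15.1, 6.61, 10.6 and 0 CPM with Fgf4 and at 73.5, 43.4, 40.3, 12.4 and 8.32 CPM without. It was lower with Fgf4 in 5 of 5 embryos, by little in embryo 9, and the classes overlapped (log2 difference -2.04, standard error 0.97, adjusted p = 0.998 with edgeR and 0.282 with DESeq2). Fgfr3, Fgfr4 and the decoy receptor Fgfrl1 had means below 1 CPM in both classes.

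Sdc4, which encodes the heparan sulfate proteoglycan syndecan 4, stood out among the 9 co-receptor and heparan sulfate genes tested. It stood at 587, 269, 181.6, 371 and 134.5 CPM with Fgf4 and at 1159, 596, 1246, 527 and 569 CPM without it. All 5 embryos were lower with Fgf4, and only the sum of embryo 6 with Fgf4 overlapped the other class (log2 difference -1.49, standard error 0.31, adjusted p = 0.998 with edgeR and 9.87e-05 with DESeq2). In cells with at least 5500 detected genes, an alternative chosen after the data were seen that leaves 3 embryos, its difference was -0.69. The same setting made the difference smaller by over 1.5 times for 8 of 25 genes followed through the alternatives, namely Sdc4, Ssna1 (-0.80 to -0.10), Ctgf (1.52 to 0.58), Mrps18c (-0.79 to -0.39), Ankrd10 (2.34 to 1.18), Ckb (0.53 to 0.27), Kdm5b (1.69 to 0.88) and Fgfr2 (-2.04 to -1.17). Among the other 17, Sox17 was at -3.94, Pdgfra at -2.90 and Nanog at 1.10. Of 16 adaptors and kinases of the Ras and ERK cascade tested, 0 were at an unadjusted p under 0.05, against 3.76% of all genes. The adaptor Grb2 was the 1 member higher in 5 of 5 embryos (112.6 ± 24.4 against 79.98 ± 6.96 CPM). Of all genes tested, 4.83% were. Among 14 ERK targets and feedback genes tested, 0 were at that p and 1 was higher in 5 of 5 embryos. Etv5 was at 81.3 ± 25.7 and 102.3 ± 49.4 CPM, Spry2 at 178.3 ± 66.5 and 259.8 ± 170.04, and Dusp6 at 8.38 ± 13.5 and 12.3 ± 22.2 (n = 5 each).

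The 10 genes with the smallest p that were higher with Fgf4 in all embryos came from outside the FGF pathway. Aqp3, a channel for water and glycerol, stood at 401, 415, 233.7, 386 and 261.8 CPM with Fgf4 and at 255.2, 46.7, 68.7, 133.2 and 96.1 CPM without (log2 difference 1.69, standard error 0.33, adjusted p = 0.998 with edgeR and 0.000328 with DESeq2). Only embryo 6 without Fgf4 reached into the other class. Bcl2l14, a member of the Bcl2 family, stood at 139.3, 120.2, 124.01, 112.3 and 141.9 CPM with Fgf4 and at 41.3, 54.9, 36.9, 53.3 and 45.8 CPM without, with no overlap and a narrow range in each class (log2 difference 1.47, standard error 0.32, adjusted p = 0.998 with edgeR and 0.0200 with DESeq2). Fn1, the matrix protein fibronectin, was at 199.3 ± 62.6 against 97.7 ± 32.3 CPM. The H3K4 demethylase gene Kdm5b was at 123.5 ± 45.4 against 39.1 ± 20.5, the co-chaperone gene Bag4 at 122.4 ± 58.98 against 34.7 ± 22.9, and the matrix-associated Ctgf at 125.5 ± 113.3 against 57.1 ± 54.6 CPM. The brain-type creatine kinase gene Ckb, an abundant transcript, was at 2368 ± 467 against 1655 ± 395 CPM (SD, n = 5 each). Ankrd10 stood at 149.8, 221.9, 133.7, 59.7 and 200.02 CPM with Fgf4 and at 30.7, 36.03, 4.48, 50.2 and 48.3 CPM without, with no overlap although embryo 9 differed little (log2 difference 2.34). Aqp9, another channel for water and glycerol, was at 3.61, 6.85, 4.13, 12.6 and 50.3 CPM with Fgf4 and at 0, 0, 0, 0.865 and 0 CPM without, so that its difference rested on few counts (274 and 6) and most of them came from the cells without a number. Utf1, described above, completes the 10.

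Besides Sox17, Pdgfra and Sdc4, the 10 genes lower with Fgf4 in all embryos with the smallest p were Glipr2, Idh1, Pmaip1, Ssna1, Pepd, Mrps18c and Prdx1. Glipr2 stood at 31.6 ± 24.9 against 116.8 ± 34.7 CPM and the cytosolic isocitrate dehydrogenase gene Idh1 at 308.5 ± 51.9 against 598 ± 159.7 CPM (SD, n = 5 each), neither with overlap. Pmaip1, the BH3-only gene also called Noxa, was at 39.5 ± 24.98 against 101.3 ± 17.5 CPM without overlap, and Prdx1, the most abundant of them, at 3122 ± 1066 against 4416 ± 1124 CPM. Of these 10, Sox17, Pdgfra, Sdc4, Glipr2, Idh1 and Prdx1 passed in DESeq2, and among the 10 higher genes all but Fn1 did.

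Genes that the study linked to a bias of E3.5 cells towards epiblast or endoderm were chosen by it on these cells and are not independent evidence. They include Fgf4 itself and Sox17, Pdgfra, Gata4, Fgfr2 and Nanog, so the same limit holds for these genes where they are described above. All 11 besides Fgf4 were tested. Of these, 3 were higher and 3 lower at an unadjusted p under 0.05, where 2.32% and 1.45% of all genes were. Morc1, of a family of ATPases that silence transposons, stood at 52.1, 219.2, 116.02, 63.6 and 40.998 CPM with Fgf4 and at 22.4, 53.6, 59.8, 21.05 and 17.9 CPM without it. It was higher in every embryo with overlap between the classes (log2 difference 1.399, standard error 0.38, adjusted p = 0.998 with edgeR and 0.0873 with DESeq2). The unnamed gene Gm10664 was also higher in 5 of 5, at 68.8 ± 25.5 against 23.6 ± 30.2 CPM. Pdpn was at 305 ± 67.1 and 321 ± 239.1 and Dppa5a at 6198 ± 1433 and 5804 ± 465 CPM (SD, n = 5 each).

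Lists of other processes were read in the same way. Of 19 DNA replication genes tested, 1 (Rrm2) was at an unadjusted p under 0.05, where the share over all genes was 3.76% (Rrm2, a subunit of ribonucleotide reductase, 359 ± 127.98 against 500.1 ± 147.8 CPM, lower in 5 of 5), and of 18 mitosis genes 0 were. In the stress and apoptosis list Pmaip1 and the p53 regulator Mdm2 were lower in 5 of 5 embryos (Mdm2 at 34.5 ± 24.3 against 70.4 ± 26.3 CPM) among 15 tested, where 2.48% of all genes were lower in 5 of 5. The DNA methylation list held Dnmt3l, a cofactor of the de novo methyltransferases, at 19.8 ± 16.7 against 59.3 ± 53.1 CPM, lower in 5 of 5, and Tet1 at 274 ± 76.8 against 185.96 ± 125.6 CPM (SD, n = 5 each) among 8 tested. Trophectoderm genes (9 tested), LIF and STAT3 genes (7), Nodal and BMP genes (12) and maternal transcripts (9) had 0 at an unadjusted p under 0.05 in either direction.

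The same rule was applied to E4.5, in 5 other embryos of the same strain, where 30 cells had Fgf4 and 75 did not. There 655 of 10169 genes passed as higher with Fgf4 (6.44%) and 878 as lower (8.63%) in the same edgeR test. PrE genes fell almost as a whole in cells with Fgf4, 31 of 35 tested, and 1 (Nid2) rose. Among 33 epiblast and pluripotency genes 20 rose with Fgf4 and 1 (Klf5) fell. In cells with Fgf4 at E4.5, 23 of 30 held Nanog and 30 of 30 held Sox2, against 4 and 13 of the 75 cells without it. Sox17 was held by 8 and 60 of these cells, Pdgfra by 4 and 70, and Gata6 by 7 and 71. Wells labelled double are counted as cells here and can hold transcripts of 2 cells. In E4.5 embryos 1 to 5 they were 2, 1, 1, 2 and 3 of the wells with Fgf4. Among those without Fgf4 they were 2, 7, 3, 10 and 7.

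The genes called at E4.5 were then read at E3.5. Of the 655 genes higher with Fgf4 at E4.5, 513 were tested at E3.5 and 68.2% of them lay above 0 there, against 59.2% of the 8311 genes tested at both stages. Their median log2 difference at E3.5 was 0.18, where at E4.5 it was 1.65, and 10.3% were higher in 5 of 5 E3.5 embryos against 4.79% of all. Of the 878 lower genes, 667 were tested at E3.5 and 49.6% lay below 0, against 40.8% of all. Their median at E3.5 was 0.01, where at E4.5 it was -1.90, and 4.35% were lower in 5 of 5 against 2.50%. Across the 8311 genes the log2 differences at the 2 stages hardly went together (Spearman correlation 0.03). Across the 1180 of them called at E4.5 the correlation was 0.15.

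**Figure D5:**
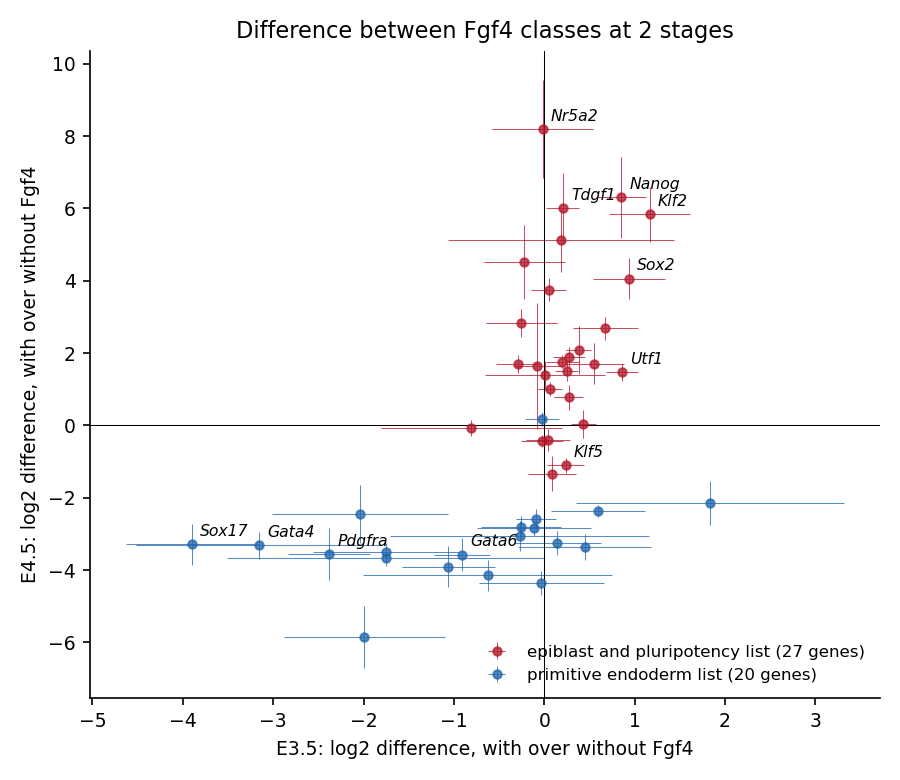
Log2 difference between cells with and without Fgf4 at E3.5 (horizontal) and E4.5 (vertical) for the 27 epiblast and pluripotency genes and 20 PrE genes tested at both stages. Bars are standard errors from edgeR. Sox17, Pdgfra and Gata4 lie far from 0 at both stages, Nanog, Klf2 and Sox2 lie above 0 at both, and Tdgf1 and Nr5a2 lie close to 0 at E3.5 and far above it at E4.5.

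Whether a difference changed between stages was tested as an interaction of stage and class in a fit over all 20 sums, in which 2.32% of 11163 genes passed. Sox17 differed by 0.56 (E4.5 minus E3.5, log2, standard error 0.88, adjusted p = 0.832 in edgeR) and Pdgfra by -1.21 (standard error 0.94, adjusted p = 0.580 in edgeR), and with these errors a change between stages was not detectable for either. For Nanog the difference between classes grew by 5.24 (standard error 1.06, adjusted p = 0.0174 in edgeR), since its level without Fgf4 was 301 ± 181.6 CPM at E3.5 and 4.60 ± 8.49 CPM at E4.5 (SD, n = 5 each). Gata6 grew the other way by -2.67 (standard error 0.58, adjusted p = 0.0252 in edgeR), its level with Fgf4 being 123.7 ± 67.1 CPM at E3.5 and 16.8 ± 9.43 CPM at E4.5. In the epiblast list 13 of 35 genes tested became more positive and 1 more negative, among them Tdgf1, Gdf3, Klf2 and Sox2. In the PrE list 9 of 35 became more negative and 0 more positive, among them Col4a1, Col4a2, Lamb1 and Sparc. The difference of Morc1 also grew, by 4.87 (standard error 1.18, adjusted p = 0.0436 in edgeR), to 433 ± 119.5 CPM with and 20.8 ± 35.98 CPM without Fgf4 at E4.5. Aqp3 and Bcl2l14, among the 10 higher genes at E3.5, were at or below 20.8 CPM in every E4.5 sum.

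Prdx1 and Dnmt3l had differences of opposite sign at the 2 stages, although neither passed in edgeR at E3.5. There the log2 difference of Prdx1 was -0.52 (adjusted p = 0.998 with edgeR and 0.0474 with DESeq2). Prdx1 was among the genes chosen for 1 direction in all E3.5 embryos, so its E3.5 direction is no independent support. Prdx1, an abundant peroxidase, was lower with Fgf4 in all E3.5 embryos and rose with it at E4.5, at 5059.9 ± 928 against 2269.8 ± 652 CPM (log2 difference 1.19, adjusted p = 0.00356 in edgeR). Dnmt3l, lower in all E3.5 embryos, was at 629 ± 240.7 CPM with and 252.8 ± 92.5 CPM without Fgf4 at E4.5 (log2 difference 1.33, adjusted p = 0.00240 in edgeR). Both passed the interaction test, at 1.71 and 2.93.

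The 16 cells of embryos 1 to 5, outside the fit, gave 6 cells with Fgf4 and 10 without. Sox17 was held by 2 of 6 and 2 of 10 of them, Pdgfra by 3 of 6 and 5 of 10, Gata6 by 6 of 6 and 10 of 10, and Nanog by 6 of 6 and 9 of 10. The highest Sox17 levels were in cells without Fgf4, at 432 CPM in embryo 1 and 189.97 CPM in embryo 2, where the highest with it were 18.4 CPM in embryo 1 and 35.9 CPM in a doublet well of embryo 5, and the other 8 cells without Fgf4 had no Sox17 count. For Pdgfra the highest were 247.3 CPM (embryo 1) without and 142.4 CPM (a doublet well of embryo 5) with Fgf4. These few cells give no test. Fgfr2 was held by 1 of 6 and 7 of 10, Morc1 by 4 of 6 and 2 of 10. With the embryos that have both classes added as sums of at least 1 cell, the log2 difference was -4.10 for Sox17 and -1.87 for Pdgfra, and 0 genes passed in edgeR.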

How the data were processed

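The authors trimmed reads with Trim Galore 0.4.3 and aligned them with HISAT2 2.0.5 to GRCm38 (versions from the submitters' processing notes), then counted reads over genes in SeqMonk. Cells with few detected genes or a high mitochondrial share and trophoblast cells had been removed by them. The deposited table holds whole-number counts without normalization, in 24483 gene rows, of which 111 share a symbol and were kept apart. Stage, embryo and well type were read from the titles. Replicates are embryos.

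Within an embryo, the counts of each class with 3 or more cells were added up and tested with edgeR 4.0.16 (R 4.3.3, quasi-likelihood test, TMM factors, filterByExpr, embryo as a block, Benjamini-Hochberg adjustment), a call being an adjusted p of at most 0.05. Fgf4 was left out of the test. Levels are TMM-normalized CPM, and standard errors are the log2 difference over the root of F. DESeq2 1.42.0 and limma 3.58.1 served as alternatives. Total counts per E3.5 cell ranged from 187196 to 1442116, and reads without molecular identifiers make all intervals counting error only. Replicates also differ in a title field (P9 for embryos 6 to 9 and P11.P6.P10 for the cells without a number at E3.5, P1 for embryos 1 and 2 and P2 for 3 to 5 at E4.5), and both classes of an embryo share it. P-values measure the spread between these replicates.

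Classes of an embryo are paired by origin. Deviations of sums from their class means correlated within embryos at 0.0953, 0.0845, 0.0399, 0.0812 and 0.152. The highest correlations with another embryo were 0.00795, 0.04215, 0.0434, 0.03311 and -0.01176. For embryo 8 this was above the value within the embryo. On simulated data the E3.5 step recovered 68 of 200 genes changed 4-fold with 1 other gene called over 8053 genes, and the E4.5 step 87 of 200 with 4 others over 9647 genes. Positions are from GENCODE for GRCm38.

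Genes named are Fgf4, genes of the FGF, receptor, epiblast, PrE and study lists, and the 10 genes higher and 10 lower with the smallest p among those of the same direction in all embryos with a mean of at least 10 CPM in a class, none of which passed. Of other lists, 2 to 4 examples are given. Single cells described one by one were chosen after their values were seen. The division by Fgf4, the lists and the tests were chosen with earlier results of these data known.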

Additional observations from a re-analysis of the deposited data

Results flagged for a closer look

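In 28 sets of 5 embryos checked for an embryo far from the rest, 1 was found, where chance gives about 1 in 20. It was Aqp9, whose log2 ratio of cells with over cells without Fgf4 was 5.681 in the cells without an embryo number and 2.206 to 2.973 in the other 4.

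The difference between Fgf4 classes changed from E3.5 to E4.5 (interaction in edgeR, adjusted p at most 0.05) for 32 genes among those listed or ranked here, given as the E4.5 minus the E3.5 log2 difference. In the epiblast and pluripotency list these were Nr5a2 (7.895), Spic (6.921), Tdgf1 (5.801), Nanog (5.235), Esrrb (4.744), Klf2 (4.605), Gdf3 (3.707), Sox2 (3.128), Etv5 (3.087), Dppa4 (1.986), Mybl2 (1.623), Trim28 (1.561), Pou5f1 (1.256) and Klf5 (-1.342). In the PrE list these were Amn (-7.453), Col4a2 (-4.176), Lamb1 (-3.799), Col4a1 (-3.374), Lrp2 (-3.077), Sparc (-2.926), Gata6 (-2.665), Lamc1 (-2.548) and Lrpap1 (-2.499). The others were Etv1 (13.67), Nlrp4f (8.305), Morc1 (4.868), Dppa3 (3.376), Dnmt3l (2.932), Prdx1 (1.714) and Bax (1.137), which became more positive, and Krt8 (-5.135) and Hspa5 (-1.808), which became more negative. Where a gene was near 0 in a class, as Etv1 was in cells without Fgf4 at E4.5, the fitted size depends on the prior count and is no bound.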

How the results depend on the processing

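At E3.5 edgeR called 0 genes under every alternative but that without a filter on low counts, which called 3 (Sdc4, Aqp3 and Pdgfra), while DESeq2 called 34 and 840 at an unadjusted p under 0.05. At E4.5 DESeq2 called 2873 in place of 1533 and wells labelled single gave 708. For the interaction DESeq2 called 9.98% of genes in place of 2.32% and single wells gave 1.27%. Leaving out an embryo gave 890 to 1526 calls at E4.5 (942 without embryo 1, 991 without 3, 890 without 4, 969 without 5) and 1.395% to 2.54% for the interaction (1.395% without E3.5 embryo 6, 1.51% without E3.5 embryo 8, 1.42% without E3.5 embryo 9, 1.52% without E4.5 embryo 3, 1.47% without E4.5 embryo 4), and the difference in genes detected was 688.6 to 1166. A limit of 50 CPM for Fgf4 gave 38.4% of cells with Fgf4. The pairing by embryo is part of the main fits, and with no replicate block 0 genes passed at E3.5 and 1318 at E4.5. The cause of these changes was not tested. For 25 genes followed at E3.5, none of which passed in the main test, 0 of 422 values under the alternatives changed sign and 18 passed. Among the 25, the 10 higher and 10 lower genes were chosen for 1 direction in every embryo of these same sums. Their unchanged sign was largely set by that choice and is no independent support. The log2 difference moved by over 1.5 times for 11 of the 23 genes tested in sums of at least 1 cell, and of 25 for 10 at a limit of 50 CPM, 9 in limma, 8 in cells with at least 5500 detected genes and 1 at a limit of 1 CPM. At 50 CPM Sox17 was at -6.49 (main -3.90), Fgfr2 at -4.33 (-2.04) and Bag4 at 0.90 (1.84), and in limma Nanog was at 2.30 (0.85).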
